A study of Mus musculus with 10 samples.

Results

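Larp4b, Msi2, Rbfox2 and Ddx42 are the 4 genes for RNA-binding and RNA-processing proteins followed here in denervated fast-twitch muscle of the mouse. They were chosen by gene symbol from the array annotation, which names 89 genes with a single symbol among 2300 features. Each gene has 1 probe, spotted 4 times on every array, and a gene's value on an array is the median of its 4 spots. RNA from the denervated TA muscle and from the contralateral TA muscle of CD1 mice, 3 months old, was hybridised to the same spotted 2-colour array. The 10 arrays cover time 0 and 4 later days (1, 3, 7 and 14), and each time point has 1 array of a first labelling and 1 with the dyes reversed. Every value is a log2 ratio of denervated over contralateral muscle, so that positive values mean more RNA in denervated muscle. The labels give neither the denervation procedure nor the number of animals behind an array, nor whether the arrays of a time point share RNA extracts. The spread between them may therefore be technical, and p-values over arrays measure that spread alone. Both samples of an array are whole muscle, in which fewer cells of a type and less RNA per cell cannot be told apart.

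RNA-binding proteins set the fate of transcripts after transcription, by choosing their exons and by setting their stability, place and translation. Larp4b is a La-related protein that binds messenger RNA and poly(A)-binding protein and favours the stability and translation of its targets. Msi2, or Musashi 2, binds messenger RNA through RNA recognition motifs, regulates translation, and is best known from stem and progenitor cells. Rbfox2 is a splicing regulator that, with its relative Rbfox1, controls alternative exons in skeletal and heart muscle. Ddx42 is a DEAD-box RNA helicase that associates with the part of the spliceosome that recognises intron branch points. Loss of the nerve makes a muscle fibre atrophy, with reorganised transcription and protein turnover.

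The promoters of Larp4b and Msi2 are shown because these genes followed a like time course. That of Ddx42 is shown because its log2 ratio on the last day had the opposite sign to theirs. A sequence was found for 3 of the 4 genes, and Rbfox2 is named only. The sequences are RefSeq's for GRCm38.p6, 5′ to 3′ on the gene's strand, from 250 bases before the annotated start to 50 after it. They lie at chr13:9093631-9093930 (plus strand) for Larp4b, chr11:88718228-88718527 (minus strand) for Msi2 and chr11:106216676-106216975 (plus strand) for Ddx42. Where several starts are listed (3 for Msi2 and 2 for Ddx42), the one farthest 5′ was taken. Capitals mark matches, on either strand, to the E-box CANNTG, the CCAAT box and the cyclic AMP response element TGACGTCA.
Larp4b: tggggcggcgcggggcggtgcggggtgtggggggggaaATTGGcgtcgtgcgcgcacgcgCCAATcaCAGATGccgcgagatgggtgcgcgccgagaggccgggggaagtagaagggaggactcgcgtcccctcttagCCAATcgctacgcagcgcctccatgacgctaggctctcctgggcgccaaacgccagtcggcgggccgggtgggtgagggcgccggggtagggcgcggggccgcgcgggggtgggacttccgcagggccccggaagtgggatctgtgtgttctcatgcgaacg
Msi2: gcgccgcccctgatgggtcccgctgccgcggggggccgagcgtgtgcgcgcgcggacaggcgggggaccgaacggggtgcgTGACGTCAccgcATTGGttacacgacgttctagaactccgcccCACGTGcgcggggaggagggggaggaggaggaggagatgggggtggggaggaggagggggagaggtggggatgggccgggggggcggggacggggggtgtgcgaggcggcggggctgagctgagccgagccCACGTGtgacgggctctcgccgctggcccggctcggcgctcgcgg
Ddx42: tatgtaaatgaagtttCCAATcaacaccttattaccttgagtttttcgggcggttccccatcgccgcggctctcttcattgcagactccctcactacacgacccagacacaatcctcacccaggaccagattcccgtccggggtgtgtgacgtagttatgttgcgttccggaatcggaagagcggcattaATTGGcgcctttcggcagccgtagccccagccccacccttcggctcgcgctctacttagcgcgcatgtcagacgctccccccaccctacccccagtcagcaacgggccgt
Larp4b has 3 CCAAT matches, the nearest to the start at position -112, and 1 E-box at position -183. Msi2 has 1 CCAAT match at position -157, 2 E-boxes at positions -126 and 6, and a cyclic AMP element at position -169. Ddx42 has 2 CCAAT matches, at positions -234 and -60, and no E-box. Over all 32851 promoters of the same length, 37.4% hold a CCAAT match, 72.3% an E-box and 1.79% the cyclic AMP element. The matches describe the letters in these windows and say nothing of binding. The GC content was 72% for Larp4b, 76.3% for Msi2 and 57.7% for Ddx42.

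Across the series, the arrays of a time point agreed weakly. Over 2300 features, the correlation between them ran from -0.29 at day 1 to 0.27 at day 3 and was -0.07 at day 14, as a description over features that share arrays and normalization. The share of features with matching signs on the pair of arrays was 51.5% at day 1 and 74.5% at day 3. In limma with the 10 arrays as separate samples and Benjamini-Hochberg adjustment over all features (threshold 0.05), the share of features that passed was 7.96% for day 3, 11.6% for day 7 and 14.3% for day 14. At time 0 the share was 0%, with 329 features at an unadjusted p under 0.05, and at day 1 it was 0.0435%. Of 23 fixed genes of muscle fibres, 4 were measured (Neb, Trdn, Slc25a4 and Scn4b), and none of the denervation, satellite cell, fibroblast, endothelial, leukocyte, Schwann cell or blood markers had a named probe. Of those 4, Neb and Slc25a4 passed between days 3 and 14 (1.48 and -1.03, adjusted p = 0.0435 and 0.0325), and 1, 2 and 3 of them passed at days 3, 7 and 14. The tissue was not checked beyond those 4 genes, and ratios give no level.

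Larp4b was higher in denervated muscle at day 3 and lower at day 14. At time 0 its log2 ratio was -0.48 on the first and -0.07 on the reverse labelling, and day 1 gave 0.09 and 0.15. Day 3 gave 0.75 and 0.55, day 7 gave 0.41 and 0.08, and day 14 gave -0.39 and -0.50. Both arrays thus had the same sign at each of the 5 time points, with the sign turning between time 0 and day 1 and again between days 7 and 14. The day 3 mean of 0.65 ± 0.14 (SD, n = 2 arrays), 1.57 times the contralateral level, passed the limma test (adjusted p = 0.0468). It was the single gene of the 4 to do so at day 3, where 2.39% of all features passed as higher. The day 14 mean of -0.45 ± 0.08 (SD, n = 2), 0.732 times the contralateral level, did not pass (adjusted p = 0.0850). The spots of Larp4b lay close together, with a median span of 0.13 log2 units over the 10 arrays, against 0.48 for the median probe. All 8 spot values of day 3 lay between 0.54 and 0.78, and all 8 of day 14 between -0.64 and -0.31. The day 3 call was lost without the first labelling (0.55) or the reverse one (0.75), in fits that leave 1 array at day 3 and less power. It was also lost when spots were averaged (0.66, adjusted p = 0.0527) or the arrays centred (0.63, adjusted p = 0.0608). With the labelling orientation added to the fit, the call was lost too (0.65, adjusted p = 0.0739). Larp4b passed at day 3 in 5 of 9 alternatives that kept every array. Over these the value ran from 0.46 to 0.92 and the adjusted p from 0.00970 to 0.152. The 0.92 is the difference of day 3 from time 0, which also passed (limma adjusted p = 0.0494). Among the others the highest day 3 ratio was 0.66, with the spots averaged. The smallest adjusted p came with probes of wide spot spread left out, which left the Larp4b value unchanged. In that setting 407 of 1285 features passed at day 3. The print block that holds Larp4b had medians of 0.17 and 0.20 at day 3, and with print blocks centred the gene stood at 0.46 (adjusted p = 0.152).

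Msi2 followed a like course at smaller size. Its log2 ratio, again first and then reverse labelling, was -0.28 and -0.17 for time 0, -0.05 and 0.08 for day 1, and 0.40 and 0.47 for day 3. Day 7 gave 0.27 and 0.30, and day 14 gave -0.22 and -0.36. Day 1 was the single time point at which its arrays differed in sign, and the arrays of days 3 and 7 lay above those of the other days. The mean of the pair (± SD, n = 2) was 0.43 ± 0.05 for day 3, 0.29 ± 0.02 for day 7 and -0.29 ± 0.10 for day 14. None passed in limma (adjusted p = 0.0505, 0.114 and 0.0993). At day 3 Msi2 lay just outside the threshold. It passed with time 0 subtracted (0.66, adjusted p = 0.0485). It also passed without spot values that recur on an array (adjusted p = 0.0443) and with probes of wide spot spread left out (adjusted p = 0.0259). Those settings removed no spot of Msi2, whose value stayed at 0.43. They kept 2058 and 1285 features, of which 228 and 407 passed at day 3. Over 9 alternatives that kept every array the adjusted p ran from 0.0259 to 0.169. All 8 spots were above 0 at day 3 and at day 7, and all 8 below 0 at time 0 and at day 14. The spots of Msi2 had a median span of 0.36 log2 units over the 10 arrays. On the reverse labelling of day 3 they ran from 0.17 to 0.74. The day 7 value moved with its print block, whose medians were 0.19 and 0.46 on the arrays of that day, and with print blocks centred Msi2 stood at -0.039 there. The part of print position in the day 7 value was not tested further.

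Ddx42 gave no call up to day 7, with single arrays from -0.35 to 0.42, and was higher at day 14. The first and the reverse labelling gave -0.05 and 0.42 for time 0, 0.11 and -0.12 for day 1, and -0.35 and -0.04 for day 3. Day 7 gave -0.03 and 0.27, and day 14 gave 1.08 and 1.07. Both arrays of day 14 lay above all 8 others, and the arrays differed in sign at time 0 and at days 1 and 7. The day 14 mean of 1.07 ± 0.01 (SD, n = 2 arrays), 2.11 times the contralateral level, passed the limma test (adjusted p = 0.0109). It was the single gene of the 4 to do so, where 8.74% of all features passed as higher. All 8 spot values of day 14 lay between 0.81 and 1.28. The call held when either day 14 array was left out, the first (1.07) or the reverse one (1.08, adjusted p = 0.0404 and 0.0467). It was lost with time 0 subtracted (0.89, adjusted p = 0.0965) and with the arrays scaled to a common spread (0.66, adjusted p = 0.232), a setting under which 14 features passed at day 14 in all. The print block of Ddx42 had medians of 0.25 and 0.17 on the day 14 arrays, and with print blocks centred the gene stood at 0.87 (adjusted p = 0.0137).

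Rbfox2 did not pass at any time point with the values as deposited. In the same order, its log2 ratio was 0.16 and -0.05 for time 0, -0.27 and -0.28 for day 1, 0.12 and -0.01 for day 3, and -0.06 and 0.17 for day 7. At day 14 it was 0.28 on the first and 1.32 on the reverse labelling. The other values thus all lay between -0.28 and 0.28, and the high value came from 1 array. The 4 spots of Rbfox2 on that array read 0.15, 5.09, 0.01 and 2.50, so the median of 1.32 lies between 2 pairs of spots and describes neither. On the first labelling of day 14 the spots read 0.96, 0.11, 0.28 and 0.28. A single spot also stood apart on the reverse labelling of day 7, at 7.45 against -0.07 to 0.22 for the other 3. The day 14 mean of 0.80 ± 0.74 (SD, n = 2 arrays) did not pass (adjusted p = 0.0687). It was 1.32 without the first labelling (adjusted p = 0.00386) and 0.28 without the reverse one (adjusted p = 0.311), so the value rested on the reverse array. With the arrays centred on their medians and both arrays kept, Rbfox2 passed at day 14 (0.85, adjusted p = 0.0432). Averaging the spots instead of taking their median, Rbfox2 stood at 0.93 at day 7 and 1.17 at day 14 (adjusted p = 0.276 and 0.173).

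**Figure D1:**
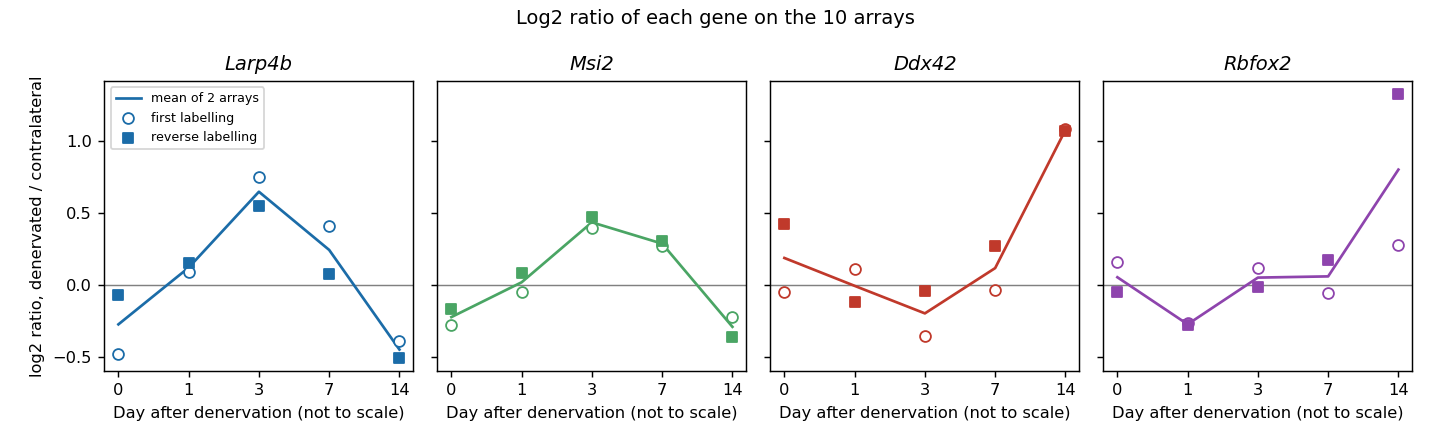
Log2 ratio of denervated over contralateral muscle (vertical axis) for 4 genes by day after denervation (horizontal axis, even steps); open circles are the first and filled squares the reverse labelling, and the line joins the means of 2 arrays. Larp4b and Msi2 peak at day 3 (0.65 and 0.43) and are below 0 at day 14, Ddx42 is highest at day 14 (1.07), and the day 14 arrays of Rbfox2 lie far apart (0.28 and 1.32).

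**Figure D2:**
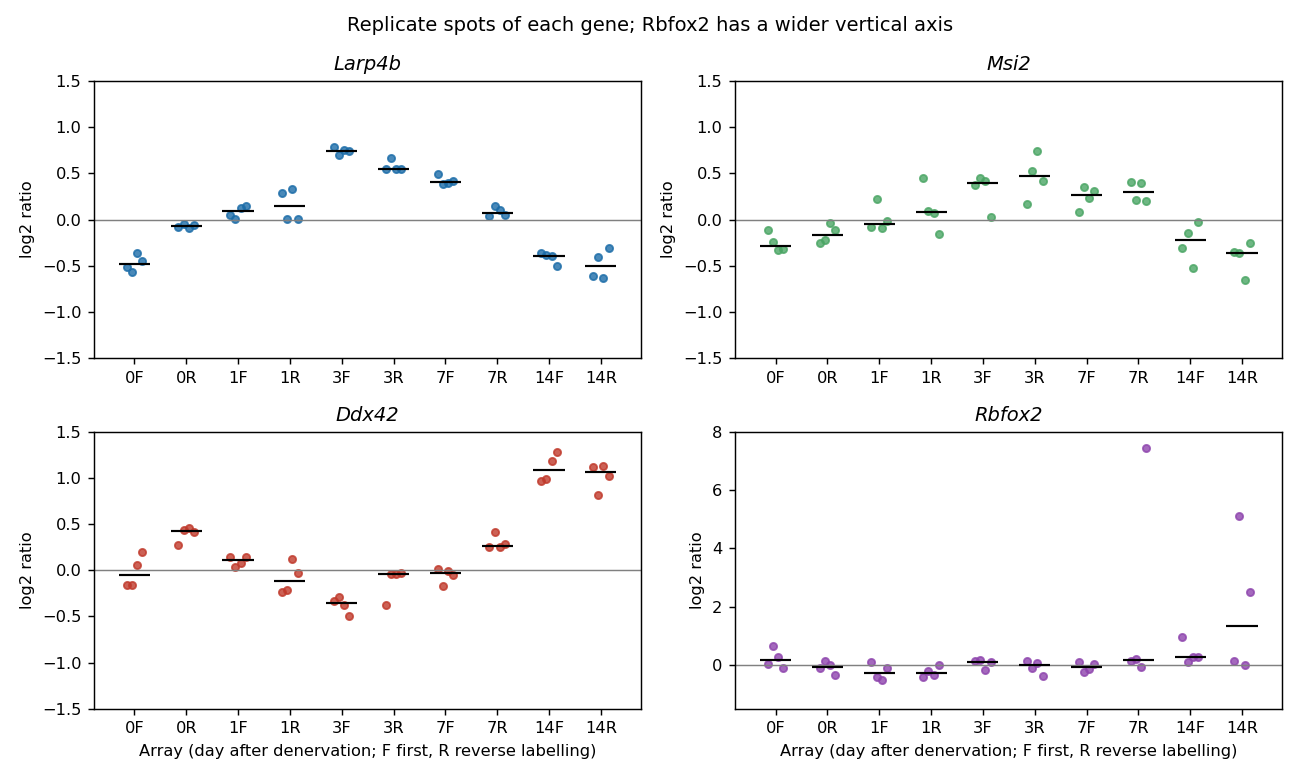
Log2 ratio of each of the 4 replicate spots (points) and their median (black bar) on the 10 arrays, labelled by day and F (first) or R (reverse labelling). Median spot spans over the 10 arrays are 0.13 log2 units for Larp4b, 0.26 for Ddx42, 0.36 for Msi2 and 0.56 for Rbfox2. Rbfox2, drawn on a taller axis, has single spots at 7.45 on 7R and at 5.09 and 2.50 on 14R.

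Early denervation (day 3) was set against late denervation (day 14), and 3 of the 4 genes differed. Larp4b fell by 1.10 ± 0.20 (SE) log2 units, to 0.468 times its day 3 ratio (95% interval -1.59 to -0.60, adjusted p = 0.0363). Msi2 fell by 0.73 ± 0.14 (SE), to 0.605 times its day 3 ratio (95% interval -1.06 to -0.39, adjusted p = 0.0375). Ddx42 rose by 1.27 ± 0.23 (SE), to 2.42 times its day 3 ratio (95% interval 0.72 to 1.82, adjusted p = 0.0333). The Rbfox2 difference was 0.75 ± 0.33 (SE, 95% interval -0.05 to 1.55) and did not pass (adjusted p = 0.212). All p-values are from the limma contrast of the same 10-array fit. In that contrast 7.52% of all features passed, 4.3% higher at day 14 and 3.22% lower. Among the 89 named genes, Larp4b had the 7th lowest and Ddx42 the 6th highest difference, where 9 named genes passed as lower and 4 as higher. The median difference of the 4 genes was 0.01, the same as the 0.01 over all features, since the directions cancel.

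For Larp4b and Msi2 both day 14 arrays lay below both day 3 arrays, as for 27.3% of all features. For Ddx42 and Rbfox2 both day 14 arrays lay above both day 3 arrays, as for 28.3%. Larp4b and Msi2 were also above 0 on both arrays of day 3 and below 0 on both arrays of day 14, a pattern held by 14% of features. Such orderings are thus common on these arrays. The direction of the difference was the same for each of the 4 genes under every alternative that gave a value. Leaving out an array could not turn it, since both day 14 arrays lay on the same side of both day 3 arrays. With the labelling added to the fit, or with repeated spot values or probes of wide spot spread left out, the differences did not change. Rbfox2 has no value in the last of these settings. The calls of Larp4b, Msi2 and Ddx42 were lost with the arrays scaled to a common spread (-0.86, -0.59 and 0.82, with adjusted p = 0.134, 0.165 and 0.206), a setting under which 4 features passed in all. The call of Msi2 was also lost with the arrays centred (-0.66, adjusted p = 0.0636). With print blocks centred Ddx42 alone passed (0.99, adjusted p = 0.0471), against -0.91 for Larp4b and -0.64 for Msi2 (adjusted p = 0.0725 and 0.135). Without either array of day 3, or without the reverse labelling of day 14, none of the 4 genes passed. Without the first labelling of day 14, Larp4b, Msi2 and Rbfox2 passed (-1.15, -0.79 and 1.27) and Ddx42 did not (1.27, adjusted p = 0.0503). A fit with 1 array at a day assumes that this array varies like the others.

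**Figure D3:**
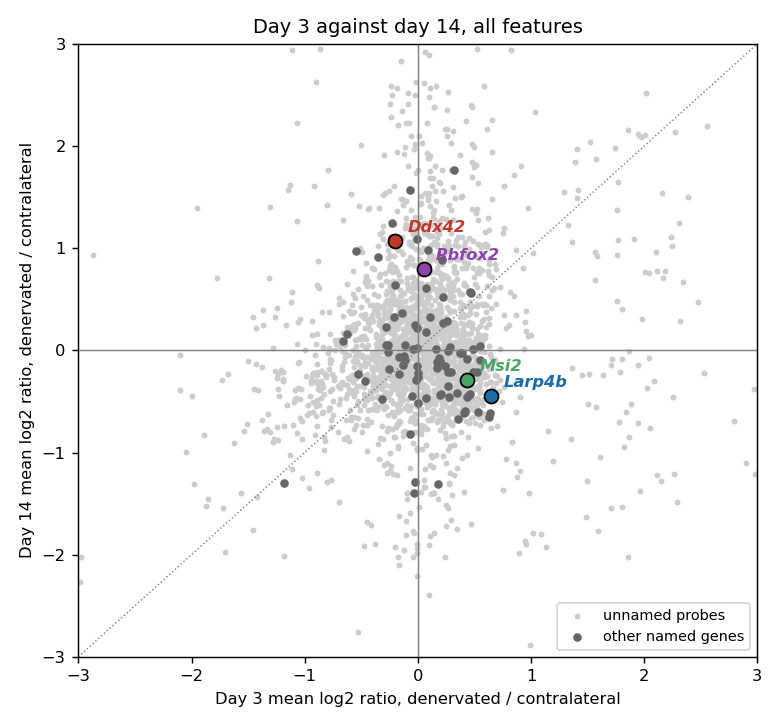
Mean log2 ratio of 2 arrays at day 3 (horizontal axis) and day 14 (vertical axis) for all features within the axes (50 features lie outside); grey points are unnamed probes, dark points other named genes, and the dotted line marks equal ratios. Larp4b (0.65, -0.45) and Msi2 (0.43, -0.29) lie at the lower right and Ddx42 (-0.20, 1.07) in the upper left, all within the cloud of other features.

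**Figure D4:**
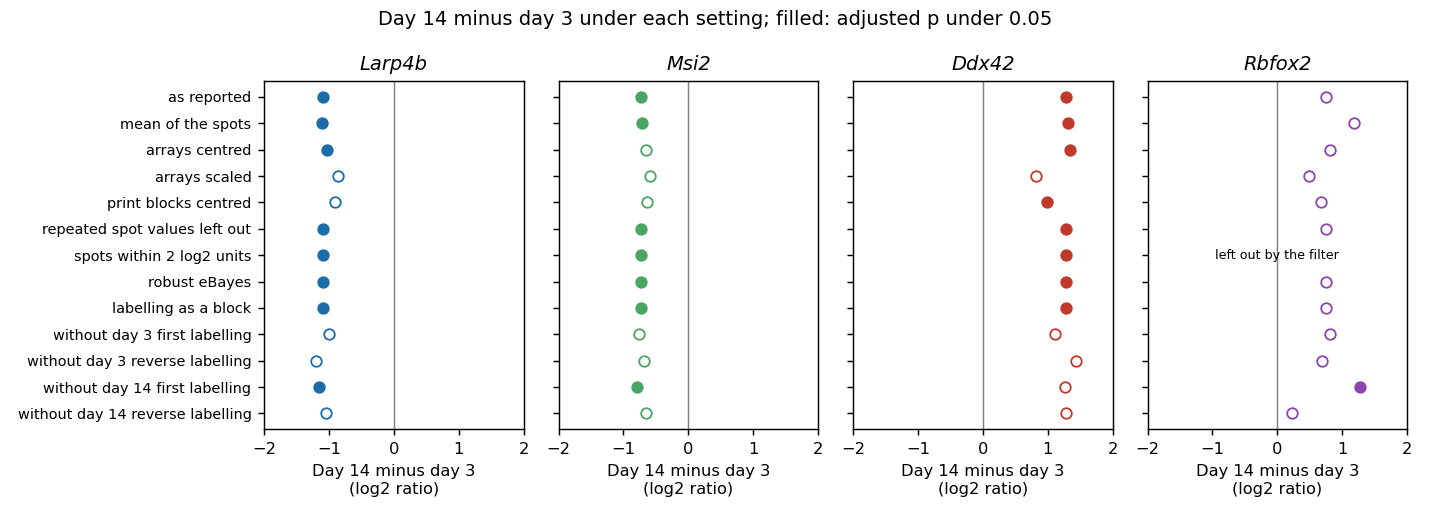
Day 14 minus day 3 in log2 ratio (horizontal axis) for each gene under each processing setting (vertical axis); filled points have a limma adjusted p under 0.05. The sign is the same in every row with a value, while the calls depend on the setting. Values run from -1.19 to -0.86 for Larp4b, -0.79 to -0.59 for Msi2, 0.82 to 1.43 for Ddx42 and 0.23 to 1.27 for Rbfox2. Leaving out an array could not turn the sign, and some settings change the test alone.

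From day 3 to day 7 the differences were -0.40 for Larp4b, -0.15 for Msi2, 0.31 for Ddx42 and 0.01 for Rbfox2. From day 7 to day 14 they were -0.69, -0.58, 0.96 and 0.74. No step passed in limma for any of the 4 genes (adjusted p from 0.0763 to 0.996), where 0.565% and 0.783% of all features did. These steps were examined after the values were known.

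Against time 0, Larp4b and Msi2 were higher at day 3 by 0.92 ± 0.20 and 0.66 ± 0.14 (SE), and both passed (adjusted p = 0.0494 and 0.0485), as did 6.96% of all features. At day 14 they stood within 0.17 and 0.07 log2 units below their time 0 ratios (adjusted p = 0.690 and 0.840, 95% intervals -0.67 to 0.32 and -0.41 to 0.27). The 2 genes were thus already below 0 on both time 0 arrays. Ddx42 differed from time 0 by 0.89 ± 0.23 (SE) at day 14 and did not pass (adjusted p = 0.0965), where 4% of features did. A difference from time 0 carries the spread of both time points.

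With each labelling swap counted as 1 replicate, no gene passed in limma on the time-point means. Over days 1 to 14 the mean log2 ratio was 0.14 for Larp4b, 0.11 for Msi2, 0.16 for Rbfox2 and 0.25 for Ddx42 (adjusted p from 0.683 to 0.771). Days 7 and 14 minus days 1 and 3 gave -0.49, -0.23, 0.54 and 0.70 (adjusted p from 0.894 to 0.916). The slope on log2(day + 1) was -0.02, 0.02, 0.18 and 0.19 (adjusted p from 0.619 to 0.986). All 3 tests called 0% of the 2300 features, with 193, 111 and 224 at an unadjusted p under 0.05, none of them one of the 4 genes.

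The named genes with the most similar values were found by the root mean square difference over the 10 arrays, as a description. Nearest to Larp4b were Gclm (0.14 log2 units), which codes for the regulatory part of glutamate-cysteine ligase, BC003965 (0.15) and Maoa (0.16), a monoamine oxidase. Over the 88 other named genes the median difference from Larp4b was 0.53. Nearest to Msi2 were Tmem263 (0.12), Qtrt2 (0.17), a subunit of the enzyme that places queuosine in transfer RNA, and Larp4b itself (0.18), with a median of 0.42. Nearest to Ddx42 were the zinc finger gene Zfp948 (0.20), Bckdk (0.20), a kinase that restrains branched-chain amino acid breakdown, and Psmd1 (0.30), a proteasome subunit, with a median of 0.71. Rbfox2 had no neighbour as close, with Ddx42 (0.37), Psmd1 (0.37) and Zfp948 (0.38) first and a median of 0.60. Gclm had means of 0.64 ± 0.20 for day 3 and -0.61 ± 0.05 for day 14, and Bckdk of -0.55 ± 0.17 and 0.97 ± 0.09 (± SD, n = 2). Courses like those of Larp4b and Ddx42 were thus also seen in genes with no known RNA-binding role.

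Few other RNA-binding genes were measured. Of 112 listed RNA-binding and RNA-processing genes, 1 (Sfpq) had a probe under its exact mouse symbol. Of 72 helicases and spliceosome genes 0 did. Mbnl2, also on the first list, has a probe under the symbol MBNL2. Its means were 0.22 ± 0.07 for day 3 and 0.52 ± 0.02 for day 14 (limma adjusted p = 0.354 and 0.0517). Sfpq, a splicing and paraspeckle protein, had means of -0.01 ± 0.18 for day 3 and -0.15 ± 0.40 for day 14 (± SD, n = 2), and it passed on no day in limma. Its arrays of day 14 read 0.14 and -0.44, so they differed in sign.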

How the data were processed

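RNA of denervated and contralateral TA muscle was compared on 10 spotted 2-colour arrays. Per the labels, dye-labelled cDNA came from 8 µg of total RNA by oligo-dT priming, QuantArray read the images, and SNOMAD normalized every spot globally and by lowess. What the authors deposited is a log2 ratio per spot, positive for denervated muscle on every array per the labels, and the signs were left as they are. The sources used here give no background correction, spot filter or version. No intensities were used, so signal over background is unknown and dim probes could not be filtered. Lowess centring makes each ratio relative to the bulk of its array. Array medians ran from -0.14 to 0.09, and no centring beyond this is stated.

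Each array has 9216 spots in 16 print blocks. All 97 annotated probes recur at 4 fixed offsets, and this layout, inferred for unnamed spots, gave 2304 probes. The 4 spots of a probe were summarised by their median. On each array 1 value recurred in 91 to 745 spots. It was held by 1 of the 160 spot values of the 4 genes, a time 0 spot of Rbfox2. Probes with a single symbol (93) were named, those with several (4) were not, and probes of a gene were averaged, leaving 2300 features. Symbols were updated through Entrez identifiers in a RefSeq table (GRCm38.p6), which held 80 of 89 genes.

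Two-sided tests used limma 3.58.1 in R 4.3.3, with Benjamini-Hochberg adjustment over all features and a threshold of 0.05. One fit took the 10 arrays as separate samples, with a coefficient per time point and contrasts between them, and 3 fits took time-point means. The array fit was run on simulated data with independent noise on each array. The time-point fits were run on data almost free of noise, which checks the recovery of their estimates alone. Neither run held deviations shared by arrays of the same labelling. Named were the 4 genes, the 3 nearest named genes of each, and measured genes of fixed lists. The genes, lists and tests were chosen with earlier results of these data known. Alternatives covered the spot summary, centring, scaling, print blocks, repeated spot values, spot spread (at most 2 log2 units), robust eBayes, the labelling as a block, time 0 and left-out arrays or days. Promoter sequences are RefSeq's.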

Additional observations from a re-analysis of the deposited data

Results flagged for a closer look

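The contrast of day 14 with day 3 itself was past the limma threshold for Larp4b at -1.10 (adjusted p = 0.0363), for Msi2 at -0.73 (adjusted p = 0.0375) and for Ddx42 at 1.27 (adjusted p = 0.0333), which is what marked these results. In each case both arrays of day 14 lay on the same side of both arrays of day 3. Of all features, 27.3% lay below in this way and 28.3% above. Groups of 2 arrays are too small for a check of single outlying arrays.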

How the results depend on the processing

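Of 58 alternative values of the 5 gene results that passed, 34 passed again, 24 kept their direction without passing, and 0 turned. Leaving out an array could not turn them. Both arrays of Larp4b at day 3 and of Ddx42 at day 14 shared a sign. For the 3 differences, both day 14 arrays lay on the same side of both day 3 arrays. The number of the 4 genes that passed at day 3 (1 as reported) was 0 with the mean of the spots, arrays centred, print blocks centred or the labelling as a replicate block, and 2 with repeated spot values left out, spots within 2 log2 units or time 0 subtracted. At day 14 (1 as reported) it was 2 with arrays centred or spots within 2 log2 units, and 0 with arrays scaled or time 0 subtracted. For day 14 minus day 3 (3 as reported) it was 0 with arrays scaled, 1 with print blocks centred and 2 with arrays centred, where Msi2 did not pass. With single arrays left out the counts were 0 at day 3, 1 to 2 at day 14, and 0 to 3 for the difference. Fewer arrays leave less power in those fits, and otherwise the cause was not tested. Counts at time 0, at days 1 and 7 and in the 3 time-point tests were 0 throughout, also with the time point as a random block, where the slope fit called 52 features in all, and with the labelling as a replicate block beside it, where it called 32. The labelling orientation is the single link between arrays of different days. First minus reverse differences correlated above 0.1 in 9 of 10 pairs of time points (0.03 to 0.42 over 2300 features), so arrays of 1 orientation mostly deviated together. Since 1 pair stayed below 0.1, the block was kept as an alternative. Under the block, Larp4b at day 3 kept 0.65 with an adjusted p of 0.0739. The count for day 14 minus day 3 stayed at 3, with adjusted p from 0.0455 to 0.0491, close to the threshold.

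Values that changed sign had not passed before or after. With the mean of the spots these were Ddx42 at day 1 (0.0055), Rbfox2 at day 3 (-0.0059) and the Msi2 slope (-0.00054). With print blocks centred they were Rbfox2 at day 3 (-0.085) and Msi2 at day 7 (-0.039). With time 0 subtracted they were Rbfox2 at day 3 (-0.0024) and Ddx42 at day 7 (-0.070). With single arrays left out, Rbfox2 ranged from -0.052 to 0.16 at time 0, -0.015 to 0.12 at day 3 and -0.056 to 0.17 at day 7. Ddx42 ranged from -0.052 to 0.42 at time 0, -0.12 to 0.11 at day 1 and -0.035 to 0.27 at day 7, and Msi2 from -0.046 to 0.082 at day 1. With time points or a labelling left out, the mean of days 1 to 14 ranged from -0.029 to 0.34 for Larp4b, -0.055 to 0.30 for Rbfox2 and -0.030 to 0.39 for Ddx42. The late minus early value of Msi2 ranged from -0.52 to 0.060. The slope ranged from -0.21 to 0.21 for Larp4b, -0.11 to 0.19 for Msi2 and -0.040 to 0.36 for Ddx42. Rbfox2 has no value with spots within 2 log2 units, a setting that kept 1285 features. Of these, 407 passed at day 3, 483 at day 14 and 429 for day 14 minus day 3. Since each gene has 1 probe, no probe could be set against another.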

Other observations

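Other named genes with a role in RNA or translation, chosen once the annotation had been read, gave no call at days 3, 7 or 14. The annotation lists 1 probe as MBNL2, a muscleblind-like splicing regulator, in the capitals of a human symbol. The fixed list holds Mbnl2 and missed this probe because of its capitals. Its means were 0.22 ± 0.07 for day 3 and 0.52 ± 0.02 for day 14 (± SD, n = 2), just outside the limma threshold at day 14 (adjusted p = 0.0517). Eif4ebp2, an inhibitor of cap-dependent translation, stood at 0.19 ± 0.31 at day 3 and -0.43 ± 0.12 at day 14, and Qtrt2 at 0.27 ± 0.15 and -0.21 ± 0.01. Their differences of -0.63 and -0.48 did not pass (adjusted p = 0.125 and 0.122). Mfap1b, a copy of a spliceosome gene whose near-identical partner may share its probe, stood at -0.21 ± 0.36 and 0.33 ± 0.11. Purb, which binds single-stranded nucleic acid, stood at -0.17 ± 0.03 and -0.06 ± 0.10. Dusp11, an RNA phosphatase, read -0.43 on the first and 2.40 on the reverse labelling of day 14, the array on which 2 of the 4 Rbfox2 spots stood high.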
